A study of Mus musculus with 30 samples.

Results

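The effect of a heterozygous missense mutation in *Col3a1* was examined in untreated mouse aorta by bulk RNA-seq, with the aortas split into strata by their own *Col3a1* level. All 12 untreated libraries of the 30 in the series were used. They came from 6 VEDS mice (labelled Het, untreated) and 6 control mice (labelled WT, untreated). In the study's account the mice were males on a C57BL/6J background, VEDS mice carried the missense change in the germline, and the descending thoracic aorta was cleaned of surrounding fat, while the labels add that the adventitia was stripped. Untreated aortas were collected on day 30 or day 60 after birth, but the labels do not give the day of any single library, so a level of 10000 *Col3a1* CPM (expected counts scaled to a common library total) was used as a stand-in. This threshold chose 3 VEDS and 3 control libraries for a high-*Col3a1* stratum and 3 and 3 for a low-*Col3a1* stratum. The strata are groups defined from a measured value, and no level was compared between them by a test. The test between strata was of the genotype effect alone.

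*Col3a1* encodes the chain of type III collagen, a fibrillar collagen that forms homotrimers and co-assembles with type I collagen in the walls of arteries and hollow organs. Vascular Ehlers-Danlos syndrome (VEDS) follows from dominant mutations of this gene, mostly glycine substitutions in the triple helix, and is known for rupture or dissection of arteries. The aortic media is built of smooth muscle cells between elastic lamellae, with endothelium inside and a fibroblast-rich adventitia, macrophages and perivascular fat outside.

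*Col3a1* stood at 13593, 17657 and 16786 CPM in the high VEDS aortas, against 14724, 15420 and 15732 CPM in the high control aortas. In the low stratum it stood at 5262, 5544 and 4889 CPM in VEDS aortas, against 5178, 4594 and 4303 CPM in control aortas. The genotypes overlapped within both strata. The libraries nearest to the threshold were a VEDS aorta above it at 13593 CPM and a VEDS aorta below it at 5544 CPM. The summed level of 4 other fibrillar collagen genes (*Col1a1*, *Col1a2*, *Col5a1* and *Col5a2*), ranked into the 6 highest and 6 lowest libraries, gave the same split. Library totals ran from 5517510 to 7137415 expected counts, and 15949 to 16374 of the 26253 listed genes had a count. The smooth muscle genes *Acta2* and *Myh11*, for actin and myosin heavy chain, were abundant in all 12 libraries, at 6827 CPM or more and 5284 CPM or more. By the study's account each extraction batch held 1 aorta of every group, but neither batch nor harvest day is labelled by library, so no value within a batch or a day could be computed.

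**Figure D1:**
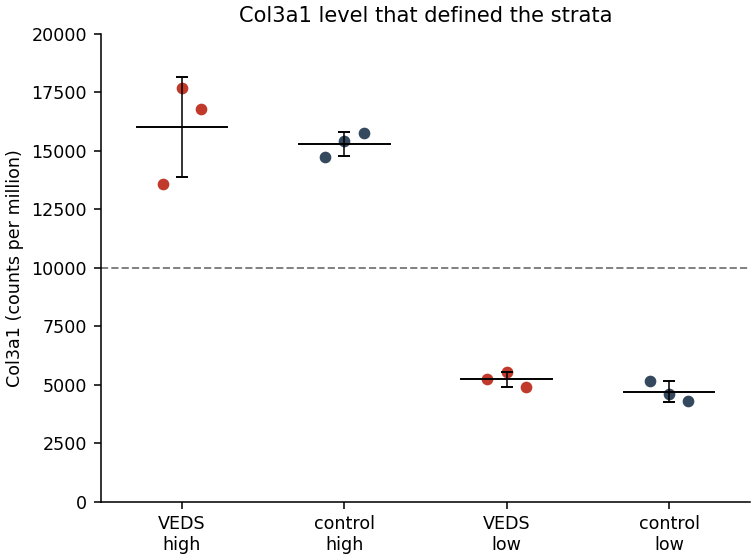
*Col3a1* level in CPM (y axis) of each untreated aorta, for VEDS and control in the high and low strata (3 libraries each). Points are libraries, horizontal lines means, bars SD, and the dashed line the threshold of 10000 CPM that chose the strata. VEDS and control overlap within each stratum.

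With the stratum held, VEDS aortas had no gene past an adjusted p of 0.05 against control aortas by edgeR's quasi-likelihood test with Benjamini-Hochberg adjustment. Of 13448 genes tested, 0 (0%) were called, and the smallest adjusted p was 0.48. An unadjusted p under 0.05 was reached by 700 genes, of which 547 (4.07% of all tested) were higher and 153 (1.14%) lower in VEDS. With no genotype effect at all, a share of about 0.05 of genes would reach that level, both directions together. The 700 lie near that share, so such counts alone do not show an effect. The Wald test of DESeq2 on the same counts and design gave 15 higher (0.112%) and 2 lower calls (0.0149%), so a call here depended on the tool. Within the high stratum neither edgeR nor DESeq2 called a gene (0 of 13448, 0%), and by edgeR's unadjusted p 182 genes were higher (1.35%) and 102 lower (0.758%). Within the low stratum edgeR again called 0 genes (0%), and by its unadjusted p 539 were higher (4.01%) and 195 lower (1.45%). There the calls of DESeq2 numbered 15 higher (0.112%) and 4 lower (0.0297%). The difference between the effects, high minus low, gave 0 calls by either tool (0%), with 151 genes higher (1.12%) and 203 lower (1.51%) at an unadjusted p under 0.05. Without the stratum term both tools called 0 genes (0%), and 404 reached an unadjusted p under 0.05 by edgeR. These shares rested in part on single libraries. With the stratum held, 2.09% of genes were higher and 1.48% lower without VEDS replicate 2, and 1.44% and 1.03% with the summed adipocyte marker level in the fit. That level did not overlap between VEDS and control within either stratum, so the fit cannot tell it apart from genotype. High-stratum shares were 2.63% higher and 3.79% lower without VEDS replicate 4, so that the balance turned, 3.00% and 1.76% without control replicate 6, and 2.27% and 0.983% without control replicate 5. Without VEDS replicate 2, a low-stratum library, they were 0.768% higher and 1.02% lower, which also turned the balance. Low-stratum shares of higher genes were 2.12% without VEDS replicate 2 and 2.05% without control replicate 3, and the share of lower genes was 2.19% without VEDS replicate 1. For the difference of effects the shares were 2.58% higher and 2.88% lower without VEDS replicate 4, and 2.27% and 2.45% without control replicate 6. The median log2 fold change of all tested genes was 0.0045 with the stratum held. Below, "higher" and "lower" give the direction of a difference, and no edgeR result passed the adjusted threshold. The labels do not say that the libraries came from separate animals, as the study does, and the p-values measure only the spread between these libraries.

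The leading genes with the stratum held were higher in VEDS aorta in both strata, and several act in antioxidant defence and the handling of sugar and fat. *Gpx3*, which encodes a secreted selenium-dependent glutathione peroxidase, had the smallest p. In high-stratum aortas it stood at 53.2, 62.2 and 63.8 normalised CPM in VEDS, against 37.0, 48.4 and 37.8 in control. Low-stratum levels were 44.7, 51.3 and 42.7 in VEDS, against 29.1, 29.8 and 21.3 in control. VEDS lay above control within both strata, but the lowest low-stratum VEDS libraries lay below the highest high-stratum control library. Its log2 fold change was 0.67 ± 0.11 (SE; edgeR unadjusted p = 3.89e-05, adjusted p = 0.48; DESeq2 adjusted p = 6.33e-05), with 0.54 ± 0.15 in the high and 0.79 ± 0.15 in the low stratum. *Tecpr1*, whose product joins autophagosomes to lysosomes, stood at 36.0, 39.9 and 40.7 in VEDS, against 27.9, 29.1 and 31.0 in control of the high stratum. Among low-stratum aortas it had 45.7, 37.9 and 43.2 in VEDS, against 34.9, 33.7 and 32.4 in control. Here all 6 VEDS aortas lay above all 6 controls, with a log2 fold change of 0.37 ± 0.06. *Pim1*, a serine/threonine kinase gene induced by cytokines, separated in the same way, at 16.9 to 24.2 CPM in VEDS and 11.8 to 15.3 CPM in control, with a log2 fold change of 0.54 ± 0.10.

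Genes in which all 6 VEDS aortas lay on 1 side of all 6 control aortas numbered 15 higher (0.112% of the 13448 tested) and 2 lower (0.0149%). The higher genes included *Pnpla2*, which encodes adipose triglyceride lipase, *Slc2a4*, the insulin-responsive glucose transporter, *Ldhb*, a lactate dehydrogenase subunit, *G6pdx*, which opens the pentose phosphate pathway, *Crat*, carnitine acetyltransferase, *Acot11*, an acyl-CoA thioesterase, and *Akt2*, a kinase of insulin signalling. They also included *Esrra*, a nuclear receptor that drives mitochondrial genes, and *Atad3a*, a mitochondrial membrane ATPase. The rest of the 15 were *Tecpr1*, *Pim1*, *Rnf126*, *Eif4e3*, *Pcdhb11* and *D730003I15Rik*. Among 13448 genes chance alone can give a count of about this size, so the 15 genes are listed as a description. No test of the count was run. *Pnpla2* stood at 81.9, 90.2 and 110.8 CPM in high VEDS aortas, against 61.4, 63.3 and 71.9 in high controls. Low-stratum *Pnpla2* stood at 73.5, 97.5 and 76.0 in VEDS, against 68.2, 49.3 and 37.6 in control. Its log2 fold change was 0.60 ± 0.13. *Slc2a4* was 0.60 ± 0.14 higher, *Acot11* 0.49 ± 0.12, *Ldhb* 0.32 ± 0.07 and *Akt2* 0.19 ± 0.05, all on the log2 scale. The 2 lower genes were *Pik3c2a*, a class II phosphoinositide 3-kinase (log2 fold change -0.13 ± 0.04), and *Tnpo3*, a nuclear import receptor (-0.10 ± 0.04). Within-stratum separation, with all 3 VEDS above all 3 controls in both strata, was seen for 70 genes (0.521%), and the reverse for 14 (0.104%).

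**Figure D2:**
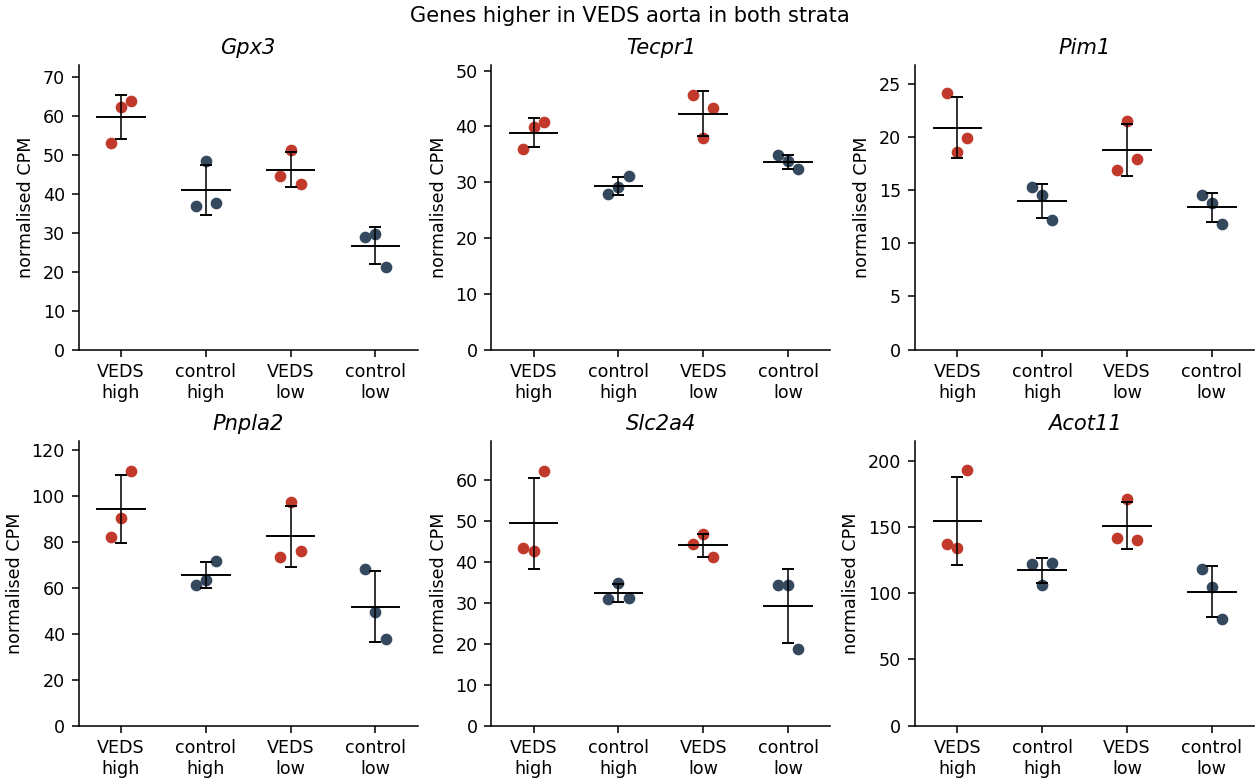
Normalised CPM (y axes, from 0) of 6 genes in VEDS and control aortas of each stratum. Points are libraries (3 per group), lines means and bars SD. In every panel the 3 VEDS libraries lie above the 3 controls of their stratum.

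The remaining genes with the smallest p also pointed up. *Gys1*, the glycogen synthase of muscle, had 23.3, 24.8 and 31.5 CPM in high VEDS aortas, against 15.7, 22.2 and 19.4 in high controls. Its low-stratum values were 20.8, 23.1 and 21.6 in VEDS, against 15.8, 14.0 and 13.0 in control. VEDS thus exceeded control in each stratum, with a log2 fold change of 0.54 ± 0.10. *Aifm2*, which reduces coenzyme Q and limits lipid peroxidation, was 0.56 ± 0.13 higher, *Uck1*, a pyrimidine nucleoside kinase, 0.51 ± 0.11, and *Itpr2*, an IP3 receptor that releases calcium from the endoplasmic reticulum, 0.31 ± 0.07. *Dnajc28*, of the J-domain family, was 0.67 ± 0.14 higher and *Rnf126*, a ubiquitin ligase, 0.44 ± 0.10. The 15 higher genes called by DESeq2 included *Gpx3*, *Acot11*, *Aifm2*, *Gys1*, *Letmd1*, *Lipe*, *Pim1*, *Pnpla2*, *Tecpr1*, *Uck1*, *Aldoa*, *Itpr2*, *Slc2a4* and *Pfkl*. The 2 lower ones were *Hspa1b* and *Hspa1a*. Of these 17, 13 were among the 25 genes with the smallest edgeR p.

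Most transcripts of energy metabolism had higher values in VEDS aorta in both strata, but outside glycolysis few reached an unadjusted p under 0.05 in the high stratum. All 33 respiratory chain subunits tested were higher with the stratum held, 16 of them at an unadjusted p under 0.05 against 4.07% of all genes, with a median log2 fold change of 0.23. The median was 0.17 in the high stratum (32 of 33 higher, 0 at that level) and 0.26 in the low stratum (33 of 33, 9 at that level). Summed subunit levels overlapped between genotypes in both strata. They ran from 4450 to 5324 CPM in VEDS and 4020 to 4950 in control of the high stratum. Low-stratum sums were 3727 to 4790 in VEDS and 2946 to 4028 in control. Only 1 subunit, *Sdha*, had all VEDS libraries above all controls in the high stratum. *Sdha*, the flavoprotein subunit of complex II, stood at 245.6, 236.9 and 280.3 CPM in high VEDS aortas, against 200.5, 208.2 and 208.2 in high controls. Its low-stratum values overlapped, at 180.5, 266.3 and 224.7 in VEDS, against 177.4, 198.1 and 137.8 in control. Of 26 fatty acid oxidation genes 24 were higher with the stratum held, 11 at an unadjusted p under 0.05 (median 0.30), with 1 at that level in the high and 11 in the low stratum. They include *Cpt1b*, the carnitine palmitoyltransferase that admits fatty acids into mitochondria (0.88 ± 0.29), and *Acadvl*, the first enzyme of very-long-chain oxidation (0.48 ± 0.14). Of 24 glycolysis genes 21 were higher, 11 at an unadjusted p under 0.05 (median 0.21), among them *Aldoa*, which cleaves fructose bisphosphate (0.38 ± 0.09). For glycolysis 6 higher genes reached that level in the high and 9 in the low stratum.

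Fatty acid synthesis genes pointed the same way, with 21 of 23 higher with the stratum held, 10 at an unadjusted p under 0.05, and a median of 0.38. Within strata 1 of the 23 was higher at that level in the high and 6 in the low stratum. All VEDS libraries lay above all controls in both strata for 2 of the 23, *Fasn* among them. Summed levels of the list overlapped in the low stratum, at 6919 to 10440 CPM in VEDS and 2502 to 7008 in control. High-stratum sums did not, at 9077 to 12590 in VEDS and 6797 to 8995 in control. *Fasn*, which encodes fatty acid synthase, stood at 2763, 2598 and 3591 CPM in high VEDS aortas, against 1654, 2119 and 2243 in high controls. It stood at 1997, 2590 and 1994 CPM in low VEDS aortas, against 1587, 1112 and 365.1 in low controls. VEDS lay above control in each stratum, and control replicate 3 of the low stratum stood far below the rest. *Fasn* had a log2 fold change of 0.84 ± 0.27. *Acacb*, the acetyl-CoA carboxylase isoform tied to mitochondria, was 0.73 ± 0.21 higher and *Thrsp*, a lipogenic regulator, 0.81 ± 0.28. Cholesterol synthesis genes differed little, with 14 of 24 higher, none at an unadjusted p under 0.05, and a median of 0.03.

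Fat cell transcripts moved with these genes. Of 16 adipocyte markers 15 were higher, 10 at an unadjusted p under 0.05, with a median of 0.51, and of 12 brown adipocyte markers 9 were higher, 5 at that level, with a median of 0.44. Summed adipocyte markers ran from 2119 to 2878 CPM in VEDS and 1633 to 2063 in control of the high stratum, and from 1962 to 2325 in VEDS and 1364 to 1882 in control of the low stratum. *Plin4* alone held 1179 of the 2325 CPM in VEDS replicate 1 of the low stratum. Brown adipocyte sums, by contrast, overlapped between genotypes in both strata. They ran from 963.7 to 1484 CPM in VEDS and 643.2 to 1151 in control of the high stratum. In the low stratum they ran from 619.3 to 954.5 in VEDS and 319.9 to 678.6 in control. No adipocyte or brown adipocyte marker measured was at 0 in all libraries of either genotype. *Lipe*, hormone-sensitive lipase, was 0.72 ± 0.18 higher, and *Ucp1*, whose product uncouples respiration in brown fat, 1.01 ± 0.42. Low-stratum *Ucp1* stood at 220.7, 454.4 and 323.1 CPM in VEDS, against 195.9, 193.1 and 25.4 in control. When the summed adipocyte marker level entered the fit, the respiratory chain median was 0.10, that of fatty acid oxidation 0.11, of fatty acid synthesis 0.14 and of glycolysis 0.12, and none of these genes kept an unadjusted p under 0.05. The summed adipocyte level did not overlap between genotypes within either stratum, so this fit cannot tell it apart from genotype. Without control replicate 3 of the low stratum, the medians were 0.17, 0.22, 0.25 and 0.17 in the same order, with 10, 9, 9 and 9 genes at an unadjusted p under 0.05. Low-stratum counts rested more on single libraries: of 33 respiratory chain subunits 9 reached an unadjusted p under 0.05 there with all libraries, against 0 without control replicate 3, 0 without VEDS replicate 2 and 21 without VEDS replicate 1. With the adipocyte level in the fit, the high-stratum median of mitochondrial fatty acid oxidation was -0.02, with 11 of 26 higher. In bulk tissue, fewer cells of a type and less RNA per cell cannot be told apart.

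**Figure D3:**
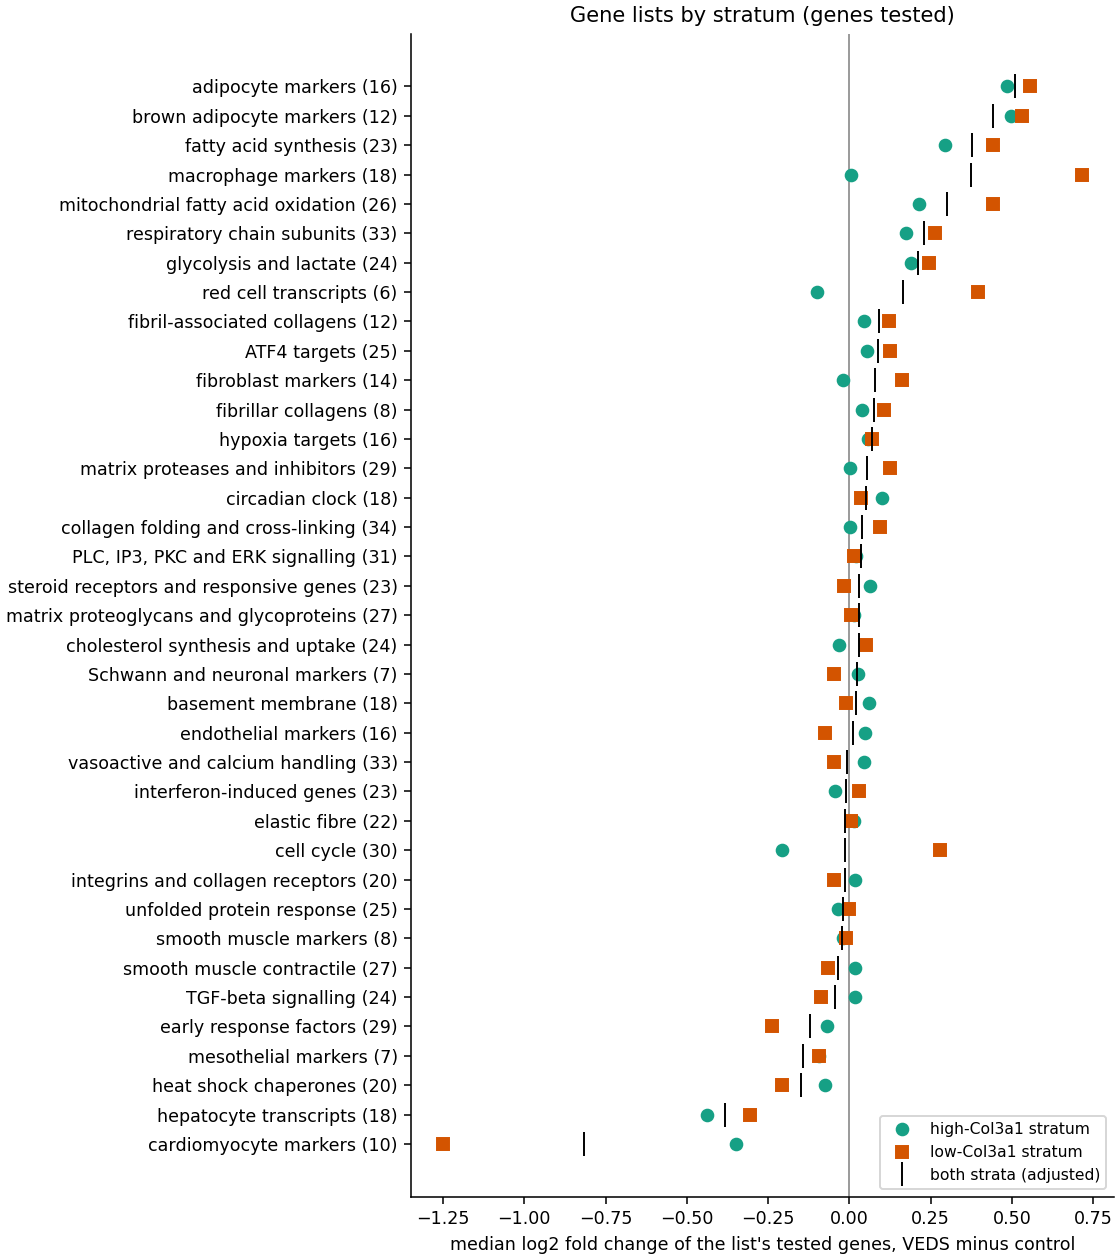
Median log2 fold change, VEDS minus control (x axis), of the tested genes of each list (number tested in brackets), in the high stratum (circles), the low stratum (squares) and with the stratum held (bars). Fat and energy lists lie to the right of 0 in both strata, while the macrophage and cell cycle lists lie apart between the strata.

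Within the low stratum the leading differences lay in stromal matrix, macrophage and stress genes, which, apart from *Gpx3*, overlapped between genotypes in the high stratum. *Islr*, a surface protein of mesenchymal stromal cells, stood at 157.1, 165.1 and 157.3 CPM in low VEDS aortas, against 123.9, 116.9 and 122.8 in low controls. High-stratum levels were 128.4, 133.4 and 126.0 in VEDS, against 126.9, 126.0 and 121.9 in control. The low-stratum log2 fold change was 0.40 ± 0.06 (edgeR unadjusted p = 1.97e-05, adjusted p = 0.264; DESeq2 adjusted p = 0.000455) and the high-stratum one 0.05 ± 0.06.

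Other matrix and stromal genes of the low stratum were *Hmcn2*, a hemicentin of the extracellular matrix, with 68.0, 78.1 and 81.3 CPM in VEDS, against 47.3, 50.4 and 45.8 in control (log2 fold change 0.66 ± 0.12). *Cilp*, a matrix protein that binds TGF-beta, had 37.6, 37.7 and 42.5 in VEDS, against 26.6, 24.8 and 24.9 in control (0.63 ± 0.12). VEDS and control did not overlap for either gene in the low stratum, and both overlapped in the high stratum, with log2 fold changes of 0.12 ± 0.12 and 0.11 ± 0.12. *Duox1*, an NADPH oxidase that makes hydrogen peroxide, was scarce, at 1.59, 1.54 and 2.16 CPM in low VEDS aortas, against 0.490, 0.314 and 0.282 in low controls. *Arfgef3*, of the ARF exchange factor family, stood at 3.47, 3.70 and 3.30 CPM, against 0.326, 1.57 and 0.564. Both are counts of few reads, and each overlapped between genotypes in the high stratum.

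Macrophage markers were higher in VEDS in the low stratum and near equal in the high stratum. All 18 were higher in the low stratum, 11 at an unadjusted p under 0.05 against 4.01% of all genes, with a median log2 fold change of 0.72. High-stratum aortas had 9 higher and 9 lower, with a median of 0.005 and none at an unadjusted p under 0.05. The difference of the effects, high minus low, was negative for 17 of 18, 10 of them at an unadjusted p under 0.05 against 1.51% of all genes, and none was called. Summed macrophage markers ran from 684.8 to 815.6 CPM in VEDS and 374.3 to 495.8 CPM in control of the low stratum, and from 654.0 to 786.0 in VEDS and 621.9 to 888.0 in control of the high stratum. The low control aortas were thus the only one of the 4 groups whose summed level lay below that of the rest.

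*Csf1r*, the receptor for the macrophage growth factor CSF1, stood at 63.5, 70.2 and 75.4 CPM in low VEDS aortas, against 36.6, 48.5 and 33.1 in low controls. Its high-stratum levels were 84.8, 67.9 and 87.4 in VEDS, against 68.6, 91.0 and 75.7 in control, and overlapped. The log2 fold change was 0.82 ± 0.16 in the low and 0.03 ± 0.15 in the high stratum (difference -0.80 ± 0.22, edgeR adjusted p = 1). *C1qa*, a chain of complement C1q, stood at 62.9, 58.7 and 70.7 in low VEDS aortas, against 44.7, 38.4 and 27.2 in low controls (0.80 ± 0.17). *Lyz2*, the lysozyme of myeloid cells, had a low-stratum log2 fold change of 0.66 ± 0.15, *F13a1*, coagulation factor XIII of resident macrophages, 0.70 ± 0.15, *Itgam*, the CD11b integrin of myeloid cells, 0.93 ± 0.17, and *Fcrls*, an Fc receptor-like gene, 1.04 ± 0.21. In each the low VEDS libraries lay above the low controls. The general macrophage marker *Adgre1*, which encodes F4/80, overlapped, at 16.2, 22.8 and 28.4 CPM in low VEDS aortas, against 24.2, 19.9 and 12.7 in low controls. The pan-leukocyte gene *Ptprc* had a low-stratum log2 fold change of 0.86 ± 0.31, while T cell *Cd3e* was at 0 in all 6 low-stratum libraries. Without control replicates 2 and 3 of the low stratum, leaving 1 low control, 15 of 18 macrophage markers were higher there (median 0.58), 6 at an unadjusted p under 0.05, where the lone low control is assumed to vary like the libraries of the other groups. With the summed adipocyte level in the fit, 16 of 18 macrophage markers were higher in the low stratum (median 0.53, 8 at that level) and 2 of 18 in the high stratum (median -0.18). Leaving out 1 library at a time left 9 to 13 macrophage markers at that level in the low stratum.

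**Figure D4:**
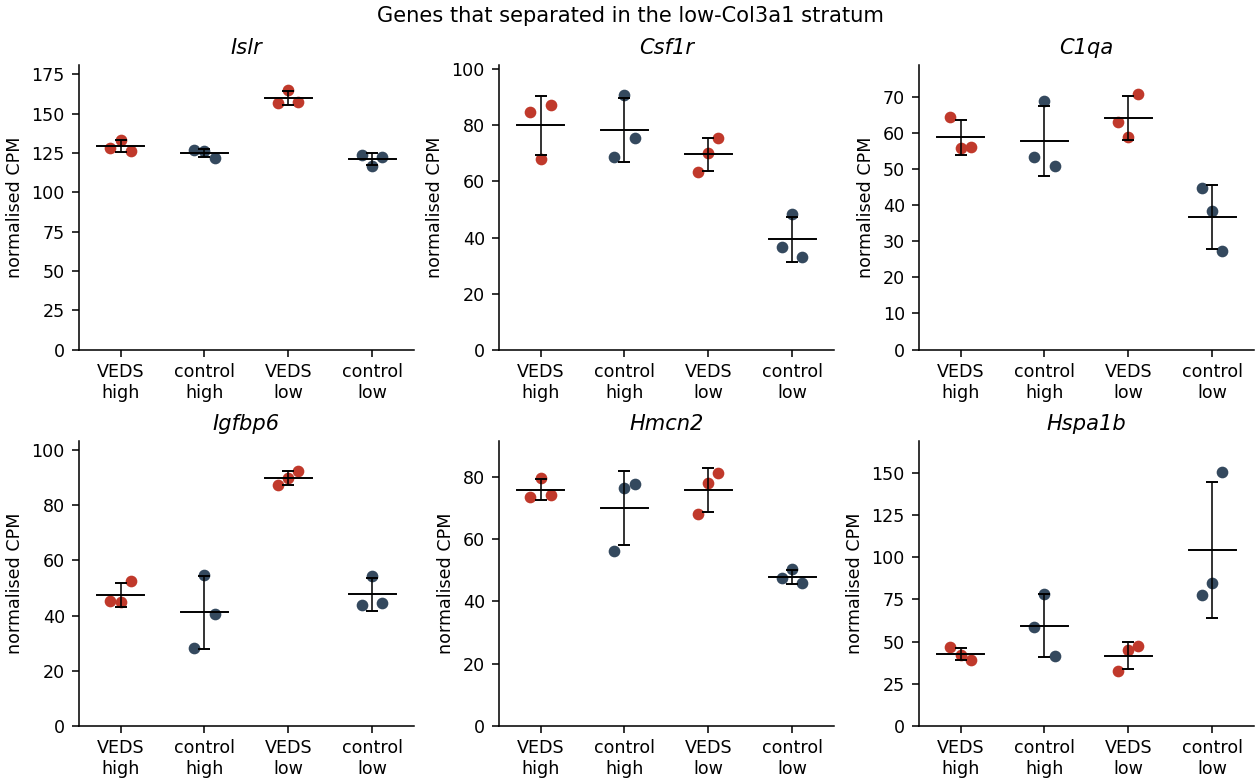
Normalised CPM (y axes, from 0) of 6 genes in VEDS and control aortas of each stratum. Points are libraries (3 per group), lines means and bars SD. In the low stratum the VEDS and control libraries do not overlap in any panel, while in the high stratum they overlap in all 6.

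Most heat shock chaperones, inducible and constitutive, had lower values in VEDS aorta. Of 20 tested, 17 were lower with the stratum held, 4 at an unadjusted p under 0.05 against 1.14% of all genes, with a median log2 fold change of -0.15. The median was -0.21 in the low stratum (16 of 20 lower, 5 at that level) and -0.08 in the high stratum (15 of 20 lower, none at that level). *Hspa1b*, an inducible HSP70 gene, stood at 32.5, 45.1 and 47.3 CPM in low VEDS aortas, against 77.4, 84.9 and 150.5 in low controls. High-stratum *Hspa1b* stood at 46.7, 41.9 and 39.2 in VEDS, against 58.8, 78.4 and 41.4 in control, where the lowest control lay within the VEDS range. With log2 fold changes of -0.91 ± 0.22 with the stratum held and -1.33 ± 0.28 in the low stratum, *Hspa1b* led the list. *Hspa1a*, its near-identical neighbour, had -0.76 ± 0.20 with the stratum held. Reads from these copies are hard to assign, so the split between them is uncertain. *Dnajb1* and *Dnaja1*, cochaperones of HSP70, had -0.35 ± 0.15 and -0.27 ± 0.12. The constitutive *Hspa8* and *Hsp90ab1* had -0.23 ± 0.14 and -0.02 ± 0.08. Without control replicate 3 of the low stratum, 2 heat shock chaperones with the stratum held and 3 in the low stratum were lower at an unadjusted p under 0.05.

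The promoters of these chaperones are shown as a description, because heat shock factor binds inverted repeats of a short unit. RefSeq promoters (GRCm38.p6) were found for 16 of the 20 genes. The paired units GAANNTTC or TTCNNGAA, each its own reverse complement, lay within 250 bases upstream of the start in 9 of the 16 (56.2%), against 14.5% of 27025 genes and 12.2% of 10712 tested genes. GAANNTTC alone lay in 7 of the 16 chaperones (43.8%), against 6.15% of tested genes. Of the 4 chaperones with an unadjusted p under 0.05, 3 held it, and *Dnajb1* had no match of these letters. The 3 include the near-identical *Hspa1a* and *Hspa1b*, so they are not separate cases. A match is a description of the letters in this window, and a list of heat shock genes was likely to hold it whatever the genotype. In the windows below, 5′ to 3′ on the gene's strand, the capitals mark the paired unit.
Hspa1a (chr17:34972245-34972268, minus strand): aactgctgGAAGATTCctggcccc
Hspa1b (chr17:34959327-34959350, minus strand): aactgctgGAAGATTCctggcccc
Dnaja1 (chr4:40722336-40722359, plus strand): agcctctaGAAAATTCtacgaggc
The *Hspa1a* and *Hspa1b* windows are the same, and 247 of 250 upstream bases match between these genes, while the unit lies 104 bases upstream of both starts and 124 bases upstream of *Dnaja1*.

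Early response factors, which are transcribed within minutes of a stimulus, were mostly lower in VEDS with the stratum held. Of 29 tested, 24 were lower, 3 at an unadjusted p under 0.05 against 1.14% of all genes, with a median of -0.12. The median was -0.24 in the low stratum (24 of 29 lower, 3 at that level) and -0.07 in the high stratum (18 of 29 lower, 0 at that level). Summed early response levels overlapped in the high stratum, at 841.8 to 991.8 CPM in VEDS and 786 to 1066 in control. Low-stratum sums were 918.3 to 1063 CPM in VEDS and 1193 to 1260 in control. *Atf3*, a stress-induced factor, stood at 16.8, 30.3 and 27.0 CPM in low VEDS aortas, against 54.2, 61.2 and 52.6 in low controls. Its high-stratum libraries overlapped, at 17.2, 28.5 and 14.5 in VEDS, against 46.4, 17.2 and 18.2 in control. *Atf3* had a log2 fold change of -0.83 ± 0.28 with the stratum held and -1.18 ± 0.37 in the low stratum. *Jund*, an AP-1 subunit, had -0.29 ± 0.12 and *Btg2*, an antiproliferative early gene, -0.31 ± 0.14 with the stratum held.

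The genes the study itself named as differing between VEDS and control aortas were chosen on these samples and are not independent evidence. The study chose them from aortas of the later harvest day alone. All 6 of its higher genes (*Fbln2*, *Fbn1*, *Igfbp6*, *Lum*, *Mmp2* and *Ctsk*) were higher with the stratum held, 5 at an unadjusted p under 0.05, against 2 without control replicate 3. Their median log2 fold change was 0.35 in the low stratum and 0.11 in the high stratum. That contrast may come from the choice of genes on the later day, which was not tested because no library is labelled by day. *Igfbp6*, which binds IGF-II, stood at 87.4, 89.8 and 92.4 CPM in low VEDS aortas, against 43.9, 54.4 and 44.7 in low controls. High-stratum *Igfbp6* stood at 45.4, 44.8 and 52.4 in VEDS, against 28.2, 54.6 and 40.5 in control, with overlap. *Ctsk*, the collagen-degrading cathepsin K, had 0.50 ± 0.11 in the low and 0.19 ± 0.10 in the high stratum. *Mmp2*, gelatinase A, had 0.39 ± 0.14 and 0.12 ± 0.14, and *Fbn1*, the microfibril protein fibrillin-1, 0.25 ± 0.09 and 0.05 ± 0.09.

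All 5 of the study's lower genes (*Jun*, *Ptgs2*, *Tlr4*, *Dnajb1* and *Atf3*) were lower with the stratum held, 2 at an unadjusted p under 0.05, and all 5 reached that level in the low stratum (median -0.60). Among high-stratum effects 3 were lower and 2 higher (median -0.07). The caveat on the choice of genes applies here too. *Ptgs2*, inducible cyclooxygenase, stood at 14.0, 7.86 and 10.2 CPM in low VEDS aortas, against 18.8, 21.7 and 19.4 in low controls. High-stratum values overlapped, at 6.54, 9.48 and 6.99 in VEDS, against 4.01, 6.59 and 8.41 in control, and the difference between effects, high minus low, was 1.17 ± 0.38. *Tlr4*, the endotoxin receptor, had -0.28 ± 0.08 in the low and 0.03 ± 0.08 in the high stratum, and *Jun*, an AP-1 subunit, -0.60 ± 0.21 and -0.07 ± 0.21.

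Lists of structural matrix genes had medians near 0 with the stratum held. Fibrillar collagens build the tensile fibrils of the wall. *Col3a1* chose the strata and 4 others gave the same split, so their values are given as a description, with no test. *Col1a2*, the second chain of type I collagen, stood at 5351, 7514 and 6880 CPM in high VEDS aortas, against 6087, 5613 and 7088 in high controls. Low-stratum *Col1a2* stood at 2477, 2789 and 2172 in VEDS, against 2463, 2276 and 2200 in control. VEDS and control overlapped in both strata. Of 34 collagen folding and cross-linking genes 26 were higher, 3 at an unadjusted p under 0.05 (median 0.04), with *Fkbp10*, a collagen chaperone, at 0.15 ± 0.05, *Plod1*, a lysyl hydroxylase, at 0.25 ± 0.09 and *Pcolce*, an enhancer of procollagen processing, at 0.12 ± 0.04. Elastic fibre genes had a median of -0.01 (9 of 22 higher), basement membrane genes 0.02 (12 of 18), and proteoglycans and glycoproteins 0.03 (16 of 27).

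Proteases and their inhibitors were the matrix list with the most genes at an unadjusted p under 0.05, with 6 higher and 1 lower of 29 with the stratum held, and 9 higher and 1 lower in the low stratum. Without control replicate 3 these counts for matrix proteases and inhibitors were 2 and 1 with the stratum held and 3 and 1 in the low stratum. *Mmp14*, the membrane collagenase that activates *Mmp2*, had 0.17 ± 0.06 with the stratum held. *Mmp3*, stromelysin 1, differed with opposite sign, at 71.4, 58.2 and 62.5 CPM in low VEDS aortas, against 46.2, 49.7 and 44.0 in low controls. High-stratum *Mmp3* stood at 29.0, 22.1 and 23.8 in VEDS, against 28.1, 30.5 and 31.7 in control, with overlap. It had a log2 fold change of 0.46 ± 0.11 in the low and -0.27 ± 0.12 in the high stratum, and their difference, high minus low, -0.72 ± 0.16 (edgeR unadjusted p = 0.000876, adjusted p = 1).

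Contractile, receptor and signalling lists also lay near 0. Smooth muscle contractile genes had a median of -0.04 (20 of 27 lower), integrins and collagen receptors -0.01 and TGF-beta signalling -0.05, with *Tgfbr2*, a TGF-beta receptor, at 0.15 ± 0.05. *Itga6*, an integrin that binds laminin, had 0.49 ± 0.16. Of 31 genes of PLC, IP3, PKC and ERK signalling, 4 were higher and 1 lower at an unadjusted p under 0.05 (median 0.04), with *Prkce*, a PKC isoform, at 0.29 ± 0.11 and *Spred2*, an inhibitor of ERK signalling, at -0.38 ± 0.13. Cell cycle genes differed in sign between strata without a call. High-stratum aortas had 22 of 30 lower (median -0.21), and in the low stratum 26 of 30 were higher (median 0.28), with 0 and 2 at an unadjusted p under 0.05. Their summed level ran from 405.7 to 456.6 CPM in VEDS and 273.2 to 677.3 in control of the high stratum, and from 238.5 to 261.7 in VEDS and 232.2 to 241.7 in control of the low stratum.

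Few genes stood apart in the high stratum. *Wnk4*, a kinase of ion transport, had the smallest p (0.00045, adjusted p = 1, edgeR) and stood at 2.42, 2.83 and 2.27 CPM in VEDS, against 0.771, 1.04 and 1.22 in control. Low-stratum *Wnk4* overlapped, at 3.33, 3.23 and 3.45 in VEDS, against 3.43, 3.92 and 3.24 in control. *Ppp1r35*, a centriole protein gene, was lower, at 2.42, 2.66 and 2.62 in VEDS, against 4.47, 4.68 and 4.89 in control. *Esrra* stood at 19.5, 23.3 and 22.6 CPM in VEDS, against 13.6, 17.2 and 14.7 in control of the high stratum, and at 17.4, 17.7 and 18.8 in VEDS, against 16.3, 15.2 and 15.8 in control of the low stratum. Its separation held in both strata. *Adra1a*, the alpha-1A adrenergic receptor that contracts smooth muscle, stood at 10.2, 16.5 and 19.1 in VEDS, against 5.55, 8.50 and 7.34 in control of the high stratum, with overlap in the low stratum (log2 fold change 0.87 ± 0.20 with the stratum held). *Ntrk2*, the BDNF receptor, had 0.45 ± 0.12, *Usp21*, a deubiquitinase, 0.49 ± 0.11 and *Slc66a1*, a lysosomal amino acid transporter, 0.94 ± 0.23 in the high stratum. *H2-T9*, a class I histocompatibility gene, stood at 6.69, 16.0 and 17.5 CPM in high VEDS aortas, against 0, 4.16 and 0 in high controls, and its reads may be shared with close relatives, so its level is uncertain.

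Of the 5 genes with the smallest p for the difference of effects, *Islr* and *Mmp3* are described above, and the others were at lower levels. *Inka1*, which inhibits the kinase PAK4, stood at 1.71, 1.66 and 1.92 CPM in high VEDS aortas, against 3.70, 2.95 and 2.14 in high controls. It stood at 2.03, 2.93 and 2.44 in low VEDS aortas, against 0.816, 1.26 and 0.986 in low controls. The groups separated in opposite directions, with a difference, high minus low, of -1.98 ± 0.42 (edgeR unadjusted p = 0.000614, adjusted p = 1). *Kcnn1*, a calcium-activated potassium channel, separated likewise (-1.39 ± 0.31), and *Ccdc58*, a mitochondrial protein gene, the other way (1.20 ± 0.27).

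Transcripts of neighbouring organs varied between libraries and moved in part with genotype. Of 10 cardiomyocyte markers tested 9 were lower in VEDS with the stratum held (median -0.82, 2 at an unadjusted p under 0.05), and summed markers ran from 212.0 to 283.6 CPM in VEDS and 330.4 to 501.5 in control of the low stratum. High-stratum sums overlapped, at 177.9 to 232 CPM in VEDS and 199.7 to 321.8 in control. The median of these markers was -0.35 there, with 0 at that level, and -1.25 in the low stratum, with 4. *Ryr2*, which smooth muscle also expresses, was the most abundant of them, and *Nppb* was at 0 in all 12 libraries. Hepatocyte transcripts were lower for 18 of 18 genes (median -0.38, none at an unadjusted p under 0.05), with summed levels from 2224 to 29210 CPM in VEDS and 17030 to 17670 in control of the high stratum, and from 351.0 to 13240 in VEDS and 2303 to 12820 in control of the low stratum. *Bpifa1*, an airway secretory protein gene, stood at 0.145, 0.462 and 0 CPM in low VEDS aortas, against 7.84, 17.4 and 0.423 in low controls, and edgeR called it in the low stratum without control replicate 3 (adjusted p = 0.0223). Fibroblast markers were higher for 13 of 14 in the low stratum (median 0.16, 3 at an unadjusted p under 0.05) and 6 of 14 in the high stratum, endothelial markers had a median of 0.01 and smooth muscle markers -0.02 with the stratum held. Apart from the adipocyte and hepatocyte levels entered into the fits, the part of these tissues in the results above was not tested. The adipocyte fit could not tell that level apart from genotype.

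**Figure D5:**
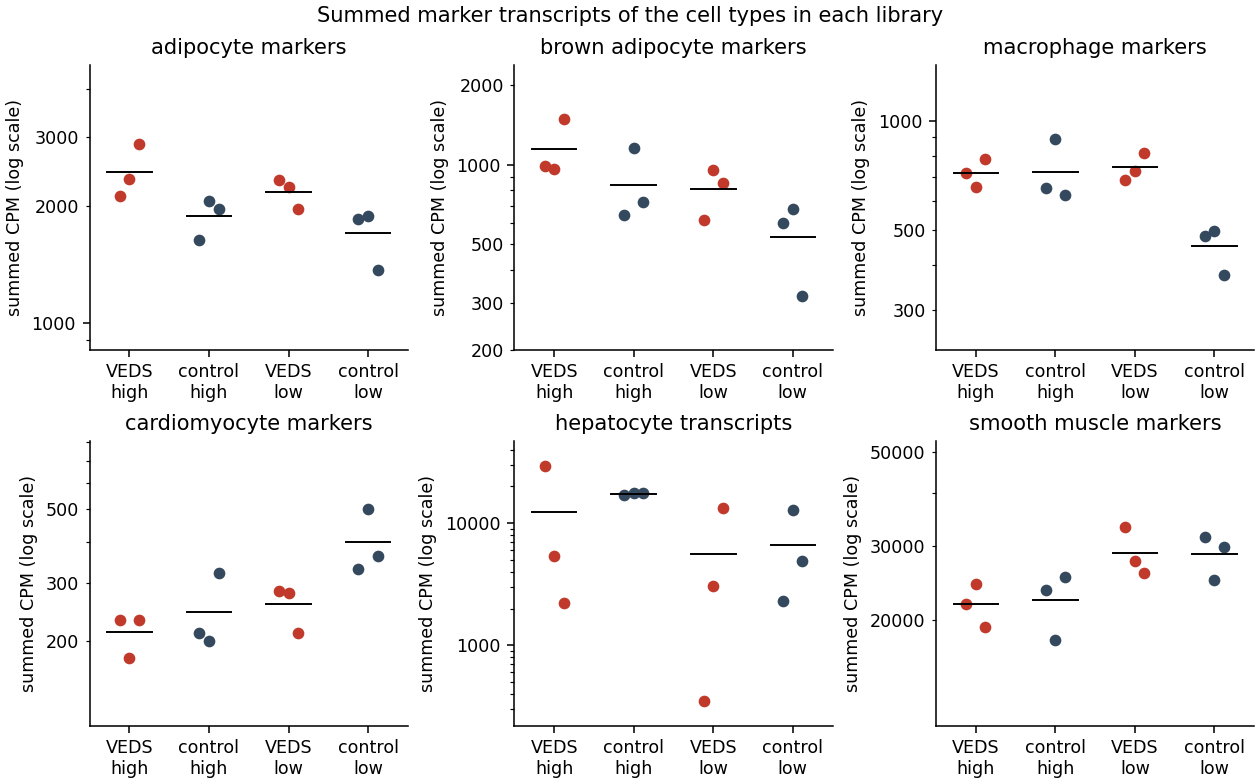
Summed CPM of the marker transcripts of 6 cell types (y axes, log scale) in each VEDS and control library of the high and low strata. Points are libraries (3 per group) and lines means. Macrophage markers are lowest in the 3 low control aortas (374.3 to 495.8 CPM), and hepatocyte transcripts span 351.0 to 29210 CPM.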

How the data were processed

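RNA-seq was made by the authors from 30 mouse aortas with a stranded total RNA kit, base calls were converted with CASAVA 1.8.4, and reads were aligned to mm39 and quantified with RSEM. The deposited files give expected counts and TPM per gene symbol. Of the expected counts, 97.6% lay within 1e-06 of a whole number, and all were rounded before testing, while TPM values were read only for *Col3a1* and entered no test. No pair of untreated libraries of the same genotype agreed within sampling noise.

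The 12 untreated libraries were fitted in R 4.3.3 with edgeR 4.0.16 (TMM, default expression filter over 4 genotype-by-stratum groups, quasi-likelihood F-test). One fit had genotype and stratum as additive terms, and a second had the 4 groups, for the effects within strata and their difference. Adjusted p-values are Benjamini-Hochberg values over 13448 genes, and 0.05 was the threshold. CPM beside gene names are TMM-normalised, except for *Col3a1* levels, and errors are SE of the log2 fold change unless SD is named. Counts near 0 carry large counting error.

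Genes were named by rule: the 10 with the smallest p in each comparison (5 for the difference) among those averaging 1 CPM or more, the 3 of each list with the smallest p, the genes named by the study and the most abundant marker per cell type. Other genes were named after their values were seen, as DESeq2 calls, separated genes or defining markers. The strata, lists and rules were chosen with earlier results of these data known. Motifs were searched in RefSeq promoters. The pipeline was tested on simulated data. Alternatives were RLE and upper-quartile factors, DESeq2 1.42.0, other filters, a fold threshold of 0.25 (log2), 1 surrogate variable (sva 3.50.0), marker levels as covariates, other forms of the stratum, a fit of all 30 libraries, each stratum alone and leaving out each library. Leaving out control replicates 2 and 3 and the hepatocyte covariate were chosen after seeing the data. Some results are not reported here.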

Additional observations from a re-analysis of the deposited data

Results flagged for a closer look

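Single libraries stood far from the other 5 of their genotype in 9 of 136 groups examined, where chance alone gives about 1 in 20. VEDS replicate 6 of the high stratum accounted for 3 of them, with 31.5 CPM of *Gys1* (others 20.8 to 24.8), 61.9 CPM of *Aifm2* (others 39.2 to 46.1) and 888.9 CPM of *Ucp1* (others 220.7 to 468.4). *Plin4*, a lipid droplet protein gene, stood at 1179 CPM in VEDS replicate 1 of the low stratum (others 574.4 to 725.1). VEDS replicate 4 of the high stratum had 97.4 CPM of *Tlr4* (others 111.5 to 119.7) and 10980 CPM of *Alb*, the liver-made albumin (others 47.7 to 3907). Control replicate 5 of the high stratum had 27.6 CPM of the leukocyte gene *Ptprc* (others 6.48 to 13.6). Summed skeletal muscle markers stood at 16.8 CPM in VEDS replicate 5 of the high stratum (others 5.42 to 9.10) and at 21.2 CPM in control replicate 2 of the low stratum (others 5.39 to 8.84).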

How the results depend on the processing

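The count of called genes was 0 in all 5 comparisons and remained 0 under 115 of 120 alternatives. Some of these alternatives could not have changed a count of 0. The fold threshold can only remove calls, and the cut by other fibrillar collagens gave the same strata. Leaving out the stratum term repeats the unadjusted comparison. DESeq2 called 17 genes with the stratum held and 19 in the low stratum, of which 3 genes were shared (*Gpx3*, *Hspa1a* and *Hspa1b*). In the low stratum edgeR called 1 gene with 1 surrogate variable, 1 with the hepatocyte transcript level as a covariate, and 0 to 1 when a library was left out, the 1 being *Bpifa1* without control replicate 3. The cause was not tested. No gene called under an alternative had the opposite sign in the result as reported. Of 1094 alternatives for named genes, 1075 left the gene on the same side of the threshold and 19 moved it past, and 69 of 3627 list medians moved by more than the spread. No paired analysis was possible because the labels give no replicate numbers. With 3 libraries per genotype in a stratum, small differences were not detectable at this depth, and age and extraction batch are not known for any library.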
